A study of Mus musculus with 5 samples.

Results

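The nuclear genes for subunits of the oxidative phosphorylation machinery were followed gene by gene in spiral ganglion neurons, the neurons that carry sound information from the cochlea to the brainstem. Members were chosen by symbol alone. They begin with Ndufa, Ndufb, Ndufc, Ndufs or Ndufv (the assembly factors named Ndufaf left out), Uqcr, Cox4 to Cox8 or Atp5, or are Sdha, Sdhb, Sdhc or Sdhd. This rule found 83 of the 14715 genes measured, of which 37 belong by name to complex I, 4 to complex II, 8 to complex III, 17 to complex IV and 17 to complex V. A rule on names takes in Cox7a2l, a factor that joins complexes into supercomplexes, and Atp5sl, also annotated as the complex I assembly factor Dmac2. It leaves out Cyc1, the cytochrome c1 of complex III, and Usmg5, a small subunit of the ATP synthase. Subunits encoded by the mitochondrial genome were not analysed here.

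Single-cell RNA libraries came from cochleae of mice of both sexes aged 30 to 33 days. The control group (2 samples) had the genotype bhlhb5-Cre/+; Ai14/+, a Cre transgene with a Cre-dependent tdTomato reporter. The CKO group (3 samples) carried the same Cre and reporter together with Runx1F/F, a floxed Runx1 meant to be removed from these neurons before birth. Cells were freed with collagenase and papain, sorted for tdTomato and captured with a 10x 3′ kit, so each molecule counted (UMI) is a tag near the 3′ end of a transcript. Both groups carry Cre and reporter, and the labels give the controls no floxed allele. The sources used here do not give the number of animals in a sample.

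In the inner mitochondrial membrane, complex I takes electrons from NADH and complex II from succinate. Both pass them through ubiquinone to complex III, cytochrome c carries them on to complex IV, which reduces oxygen, and the ATP synthase, complex V, uses the proton gradient that complexes I, III and IV build. Type I neurons, with thick myelinated fibres to inner hair cells, fire at high sustained rates, while the thin unmyelinated type II neurons contact outer hair cells. Type I neurons fall into classes Ia, Ib and Ic, and Runx1 is a transcription factor of the Ib and Ic classes.

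Cells were put into classes in a fixed order by the level of a marker, in UMIs per 10000 UMIs of that cell. A cell was type II with Dupd1 of at least 1, otherwise Ic with Lypd1 of at least 3, otherwise Ia with Calb2 of at least 150, and otherwise Ib. The control pool held 242 Ia, 395 Ib, 314 Ic and 119 type II cells, and the CKO pool 384, 216, 132 and 152. Not all markers that the order did not use went with the names. In control cells Plk5 was 4.63 in type II and at most 0.04 in the others, Ttn was highest in Ib (1.27), Pou4f1 in Ic (1.17) and B3gat1 in Ia (2.02). Of the other Ia markers, Pcdh20 was 2.25 in type II and 0.44 in Ia, and Rxrg 0.56 and 0.51. The type II marker Smad3 was at 0 in type II and at most 0.02 in the others. The Calb2 limit cut through a continuum. Within 1.2-fold of it lay 28 control cells just inside, with summed members of 644.7, and 20 just outside, with 681.3, and 58 and 50 CKO cells, with 725.1 and 657.5.

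The deposited columns carry a genotype for each cell but no library name. Each genotype was therefore 1 pool, no test between genotypes was possible, and no p-value is given. The barcodes fall into 5 alphabetical runs of columns, called stretches here. Stretches 1, 3 and 4 were CKO (355, 372 and 157 cells) and stretches 2 and 5 control (482 and 588 cells). They show the spread within a genotype, but which sample each came from is not given. Control cells held 40734464 UMIs in all (median 38085 a cell) and CKO cells 37482099 (median 44120.5), with 10379 to 100856 a cell. Runx1 itself read 1.23 in control and 1.68 in CKO cells, a 3′ count that does not check the deletion, since the removed exons are not named in the labels. Markers of endothelium and macrophages were absent (0 of 5 genes in the matrix), 1 of 4 hair cell genes was present (Myo7a, 0.04 in control cells), and glial genes summed to 27.3 in control and 24.4 in CKO cells.

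The 4 genes on which the results turn most are Cox8b, Cox8a, Cox5a and Cox7b, all of complex IV. Their promoters are shown for comparison because 2 of them encode alternative forms of one subunit, and the other 2 differed widely between neuron types or genotypes. Each run gives 250 bases before the start and 30 from it, 5′ to 3′ on the strand of the gene, from RefSeq on GRCm38.p6. Capitals mark a match to one of 6 motifs searched on both strands.

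Cox8a, chr19:7217587-7217866, minus strand: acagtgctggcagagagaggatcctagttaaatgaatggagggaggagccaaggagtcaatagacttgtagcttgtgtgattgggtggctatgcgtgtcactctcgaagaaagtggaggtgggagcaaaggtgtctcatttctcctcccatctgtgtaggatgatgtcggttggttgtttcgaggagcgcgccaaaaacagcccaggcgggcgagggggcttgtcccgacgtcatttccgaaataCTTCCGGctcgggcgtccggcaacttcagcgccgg
Cox8b, chr7:140900417-140900696, minus strand: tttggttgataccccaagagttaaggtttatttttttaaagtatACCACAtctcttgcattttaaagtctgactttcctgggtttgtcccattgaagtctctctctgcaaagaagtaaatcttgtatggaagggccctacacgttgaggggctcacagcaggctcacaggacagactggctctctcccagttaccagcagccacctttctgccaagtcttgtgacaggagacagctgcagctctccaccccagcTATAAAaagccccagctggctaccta
Cox5a, chr9:57520982-57521261, plus strand: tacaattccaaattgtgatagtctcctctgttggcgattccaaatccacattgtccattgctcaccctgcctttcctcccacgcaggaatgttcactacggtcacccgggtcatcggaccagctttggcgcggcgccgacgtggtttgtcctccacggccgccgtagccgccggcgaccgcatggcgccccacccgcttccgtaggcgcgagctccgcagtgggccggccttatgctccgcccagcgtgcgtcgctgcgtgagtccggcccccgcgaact
Cox7b, chrX:106015450-106015729, plus strand: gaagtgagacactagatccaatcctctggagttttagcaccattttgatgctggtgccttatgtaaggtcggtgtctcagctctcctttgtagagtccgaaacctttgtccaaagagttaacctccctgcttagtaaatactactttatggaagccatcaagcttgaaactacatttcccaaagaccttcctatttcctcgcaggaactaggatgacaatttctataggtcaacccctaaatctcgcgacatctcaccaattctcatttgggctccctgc

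The motifs were those of the mitochondrial gene regulators NRF1, YY1 and ERR (searched as TNAAGGTCA), of the widespread ETS family (as CCGGAAG), the TATA box found in many tissue-restricted genes (as TATAAA), and the core site of the RUNX family to which Runx1 belongs (as TGTGGT). Matches to the ETS and YY1 motifs can share letters. The Cox8a window held an ETS match 5 bases before the start and no TATA match, and it was 55.4% G and C. The Cox8b window held a TATA match 4 bases after the annotated start and a RUNX match 206 bases before it, and it was 47.5% G and C. None of the 6 motifs matched in the Cox5a or the Cox7b window. Of the 83 members, 67 had a promoter in the table. A gene counted as matched if any of its promoters did. ETS matched in 16 of the 67 (23.9%, against 9.48% of all 27025 genes with a promoter). RUNX matched in 8 (17.7% of all genes), TATA in 7 (15.1%), NRF1 in 4 (1.02%), ERR in 2 (1.39%) and YY1 in 1 (0.688%). The 8 with a RUNX match were Cox8b, Ndufa3, Ndufab1, Ndufb10, Ndufc2, Ndufs7, Uqcr11 and Uqcrfs1. A match of letters is a description of the window, not a binding site.

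The main difference among the neurons was between types. In control cells the 83 members summed to 725.1 UMIs per 10000 in Ia, 692.6 in Ib, 669.0 in Ic and 358.1 in type II neurons. CKO cells gave 765.9, 648.9, 678.2 and 368.9. Pooled over Ia, Ib and Ic, type I neurons read 714.3, 685.1, 751.5, 637.6 and 699.1 in stretches 1 to 5, and type II neurons 369.0, 356.8, 372.2, 358.6 and 360.1. Type II was the lower in each stretch, and the ranges of the types lay far apart. As shares of all UMIs, type II neurons held 0.506 of the type I rate in control (95% interval 0.503 to 0.509) and 0.508 in CKO cells. All intervals on UMIs cover counting error only, not the spread between animals.

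Not only the share was lower: a control type I neuron held on average 2806 UMIs of these genes and a type II neuron 920. The median type II neuron had 25326 UMIs of all genes in control, against 37312 to 48726 in the type I classes. Among control neurons of 25000 to 35000 UMIs, the sums were 702.0, 721.6 and 684.9 in Ia, Ib and Ic, and 358.9 in type II. Several other values moved with the type. The nuclear RNA Malat1 had a median of 453.9 in control type II neurons and 146.2 to 166.6 in the type I classes. Among control neurons with Malat1 under 300, the sums were 744.4, 723.4, 689.1 and 390.6. Cytosolic ribosomal protein genes summed to 930.1 in type II and 445.3 in type I neurons. Per 10000 UMIs that came from neither these nor the members, the members held 411.9 in type II and 784.5 in type I control neurons, a log2 difference of -0.93. Glial genes summed to 30.02 and 27.01, with Apoe, a lipid carrier of satellite glia, at 12.3 in type II and 0.17 in type I neurons. In cells with under 5 glial UMIs per 10000, the member sums were 704.0, 671.0, 651.3 and 356.4.

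**Figure D1:**
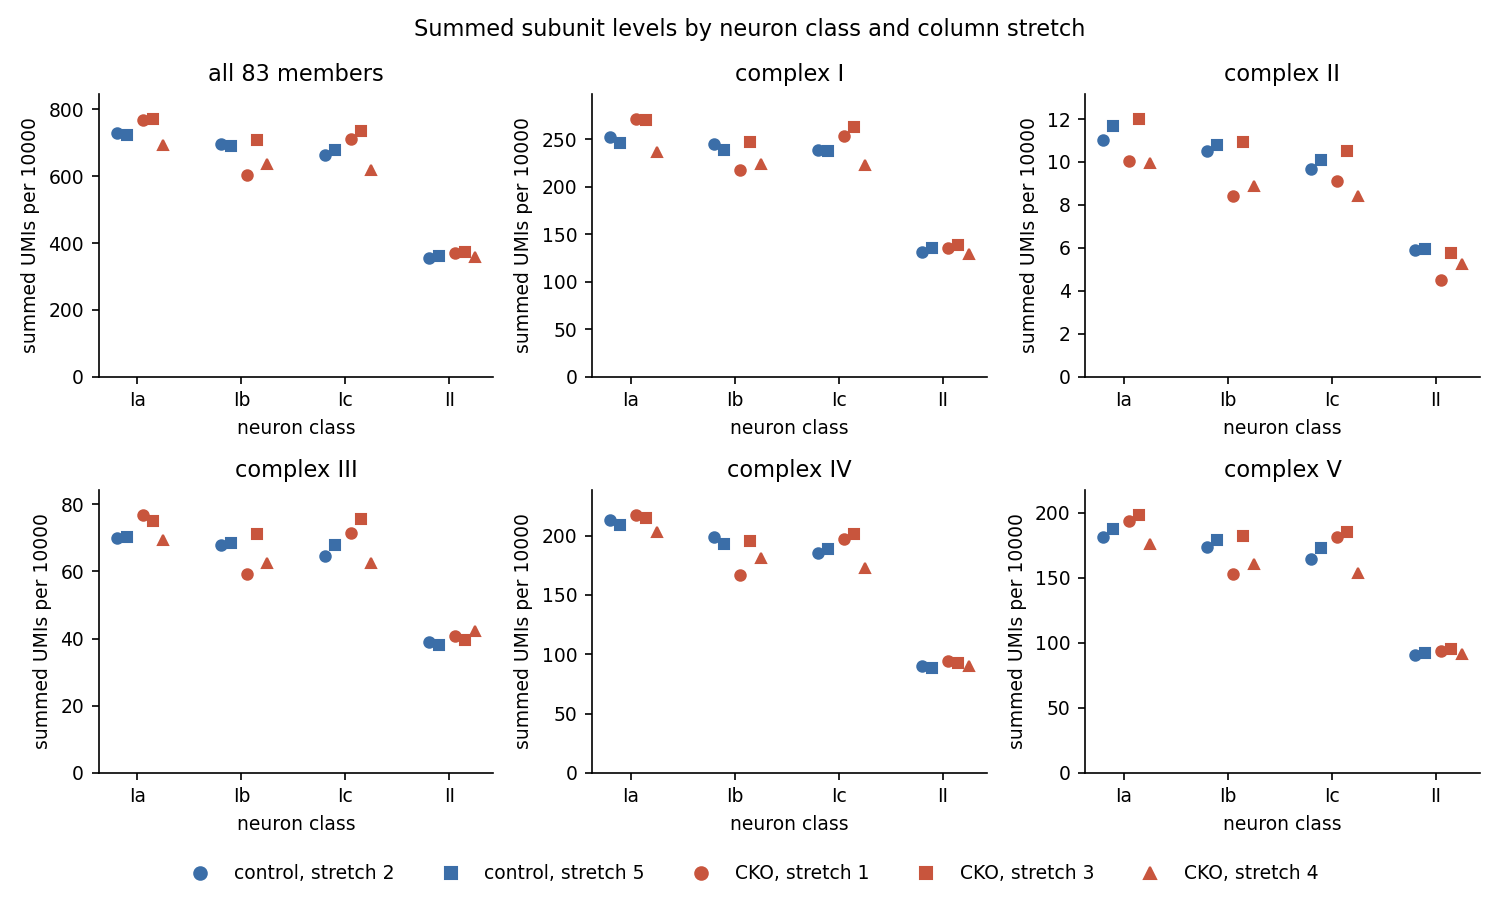
Summed level of the members (UMIs per 10000 UMIs of a cell, mean over cells) in each neuron class, for all 83 members and for each complex. A point is 1 stretch of columns, blue for control and red for CKO. Type II neurons sit at 356.8 to 372.2 for all members, below every type I class in each stretch.

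Every complex took part in the difference. Complex I summed to 241.9 in control type I and 132.6 in type II neurons, complex II to 10.6 and 5.94, complex III to 68.1 and 38.7, complex IV to 196.2 and 89.4, and complex V to 176.2 and 91.5. As ratios of UMI rates, complex IV was lowest in type II (0.445 of type I), and complex III highest (0.554). Cox5a alone gave 37.1 of the complex IV sum in type I and 7.79 in type II, and so weighed on its ratio. The median log2 difference over single members was also lowest in complex IV (-1.10), next to -0.96 in complex V. Of the 76 members at a mean of at least 0.2 in either type, 69 were at least 1.2-fold lower in type II, against 32.8% of all 7317 genes compared in the same way. The count was 25 at 2-fold, where all genes gave 10.6%. The median log2 difference was -0.94 for members and 0.02 for all genes. In CKO cells 68 members were at least 1.2-fold lower (31.7% of all genes), with a median of -0.95. Type II lay below type I in all 5 stretches for 70 of the 76 (35% of all genes) and above it in all 5 for 2 (36%), Atp5g2 and Ndufv3.

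**Figure D2:**
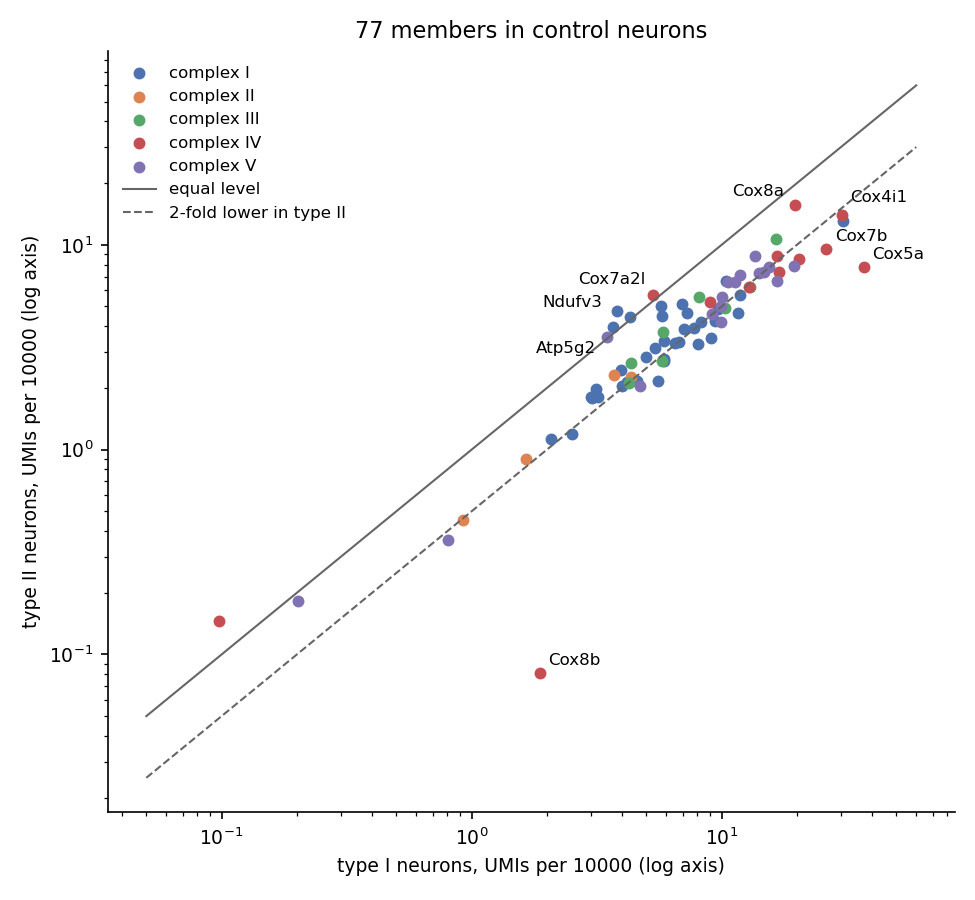
Mean level of each member in control type I (x axis) and type II neurons (y axis), in UMIs per 10000 on log axes, coloured by complex; 77 members of at least 0.05 in both types are drawn. Most points lie near the dashed line of a 2-fold lower level in type II, while Cox8b lies far below it and Ndufv3 above the solid line of equal levels.

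Within complex I, the 7 core subunits, which hold the flavin and iron-sulfur clusters, were all lower in type II neurons, with a median log2 difference of -0.94. They include Ndufv1 (4.17 in type I and 2.13 in type II), which binds NADH, and Ndufs1 (2.52 and 1.19), the largest iron-sulfur subunit. Of the 29 accessory subunits compared, which surround the core, 26 were lower. The lowest was Ndufa5 (9.04 and 3.49, log2 -1.35). Ndufa4, the most counted of the Nduf genes and now placed at complex IV, read 30.6 in type I and 13.1 in type II neurons.

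A few accessory subunits did not share the lower level. Ndufv3, a small subunit beside the NADH site, read 3.81, 3.77, 4.08, 3.45 and 3.87 in type I neurons of stretches 1 to 5 and 4.77, 4.79, 4.97, 4.59 and 4.71 in type II. The type II values were higher in each stretch and did not overlap those of type I. Its control means were 3.83 and 4.76 (log2 0.31, rate ratio 1.22, interval 1.15 to 1.28). Of the 76 members at a mean of at least 0.2, it was the only one at least 1.2-fold higher in control type II neurons, against 34.4% of all genes. Ndufa8, a subunit of the intermembrane space, read 3.69 and 3.96 in control, and Ndufa7 4.31 and 4.42. In CKO cells Ndufa8 was lower in type II (4.11 and 3.77), while Ndufa7 read 4.68 and 4.77. Neither kept one order in all stretches: in stretch 3 Ndufa8 read 4.14 and 3.92, and Ndufa7 5.10 and 4.79. Ndufb7 differed little too, at 5.74 and 5.05 in control.

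Complex II, the succinate dehydrogenase that also serves the TCA cycle, was lower in all 4 of its subunits. The flavoprotein Sdha read 4.36 in control type I and 2.27 in type II neurons (log2 -0.91), the iron-sulfur subunit Sdhb 3.70 and 2.31, and the membrane anchors Sdhc 1.64 and 0.90 and Sdhd 0.93 and 0.45. In complex III, all 8 subunits were lower. The core protein Uqcrc1 read 5.78 and 2.72 (log2 -1.06), and the Rieske iron-sulfur protein Uqcrfs1 4.35 and 2.65. The small subunits Uqcrh (16.5 and 10.7) and Uqcr11 (8.09 and 5.59) differed less.

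Complex IV held the widest spread among its own members, from a log2 difference of -3.45 for Cox8b to 0.10 for Cox7a2l. Cox5a (chromosome 9, 57521274 to 57532426), a matrix-side subunit that binds a thyroid hormone metabolite, was the most counted of the 83 members. In type I neurons of stretches 1 to 5 it read 37.8, 37.7, 42.0, 33.3 and 36.7, and in type II neurons 8.5, 8.16, 8.28, 6.38 and 7.22. The types did not overlap, and the control rate in type II was 4.89-fold lower (interval 4.69 to 5.09). Cox4i1, the widely expressed form of subunit 4, read 30.2 and 14.0 (log2 -1.1), and Cox7b 26.2 and 9.5 (log2 -1.46).

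Cox8b (chromosome 7, 140898945 to 140900446) encodes the form of subunit 8 typical of heart and skeletal muscle, and Cox8a (chromosome 19, 7215153 to 7217616) the widely expressed form. Cox8b read 2.68, 1.31, 2.37, 1.24 and 2.30 in type I neurons of stretches 1 to 5, and 0.16, 0.05, 0.13, 0.14 and 0.13 in type II. Few UMIs were seen in type II, 27 over the 119 control cells, against 7577 in type I. That is a 22.8-fold lower rate (interval 15.6 to 34.6), and the CKO cells gave 15-fold (11.8 to 19.4). Cox8a read 19.6 in control type I and 15.7 in type II neurons, a log2 difference of -0.32 and among the smallest in complex IV.

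Levels of different genes cannot be compared exactly in 3′ tags, so shares within a pair of paralogs are best read across classes. Of the UMIs of Cox8a and Cox8b together, Cox8b gave 12.7% in control Ia, 8.35% in Ib, 6.36% in Ic and 0.56% in type II neurons. Cox7a2l gave 24.0% of the Cox7a family's UMIs in control type I and 38.8% in type II neurons, with CKO shares of 23.4% and 37.4%. In the c ring of the ATP synthase, whose identical subunit comes from 3 genes, Atp5g2 gave 11.5% in type I and 24.8% in type II. Atp5g1 gave 55.7% and 46.1%. Much of the 3′ sequence of Atp5g2 also occurs in other genes (98.4% of its 50-base windows), so its count is uncertain.

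Other paralogs were nearly silent. Cox6a2, the muscle form of subunit 6a, had 4 UMIs of 36445 in control cells, and Cox4i2, a form tied to low oxygen, 11 of 119617. Cox6b2, known from testis, gave 2.49% of subunit 6b in control type II neurons and 0.24% in type I. Its 49 and 120 UMIs correspond to a rate 5.03-fold higher in type II (interval 3.53 to 7.07), and CKO cells gave 6.49-fold. Cox6b2 was 1 of 7 members under the minimum of 0.2, with Cox7c, Cox4i2, Ndufs5, Cox7b2, Cox7a1 and Cox6a2. For Cox7c, 99.2% of the 50-base windows at the 3′ end occur in other genes, and for Ndufs5 54.6%.

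**Figure D3:**
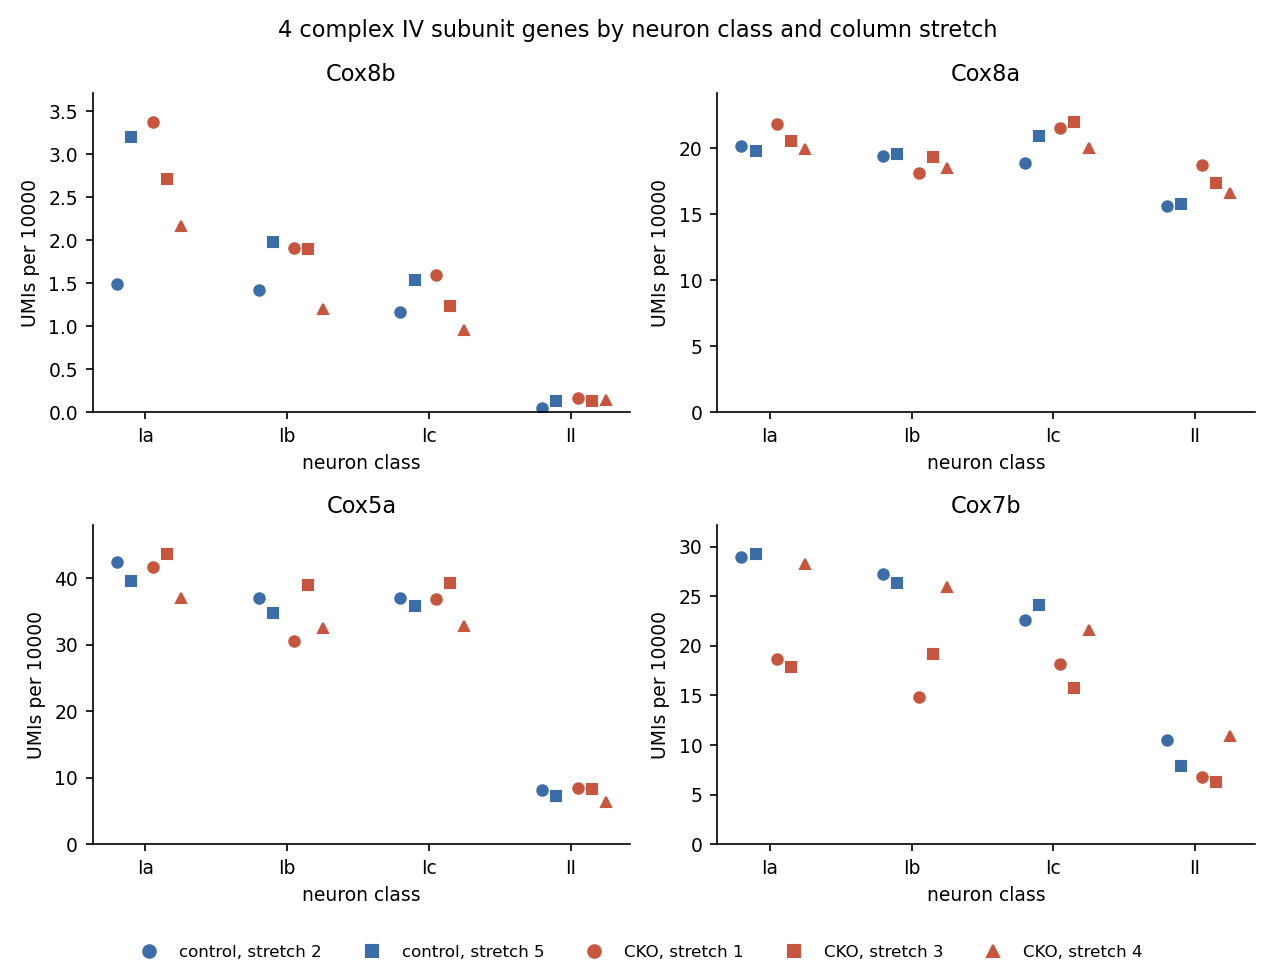
Level of 4 complex IV genes (UMIs per 10000) by neuron class; a point is 1 stretch, blue for control and red for CKO. Cox8b runs Ia, Ib, Ic, type II from high to low in each stretch, Cox8a stays between 15.6 and 22, Cox5a is low in type II, and Cox7b is low in CKO stretches 1 and 3 but not in CKO stretch 4.

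In complex V, all 5 genes of the catalytic F1 head were lower in type II neurons, with a median log2 difference of -0.85. The catalytic beta subunit Atp5b read 19.5 in control type I and 7.87 in type II (log2 -1.30), and the alpha subunit Atp5a1 15.5 and 7.81. The 7 genes of the stalk and membrane part were also all lower (median -0.98). Among the c ring genes, Atp5g1 read 16.7 and 6.63, Atp5g3 9.91 and 4.18, and Atp5g2 3.47 and 3.55.

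Genes that work with the complexes were followed from lists chosen with earlier results of these data known. Of all genes, 32.8% were at least 1.2-fold lower in control type II neurons and 34.4% at least 1.2-fold higher. Among complex I assembly factors 7 of 11 were lower and 2 higher, among those of complex III 3 of 6 and 0, of complex IV 8 of 17 and 1, and of complex V 4 of 4 and 0. The TCA cycle gave 12 of 13 lower and 1 higher, pyruvate entry 8 of 11 and 2, mobile and metabolite carriers 15 of 18 and 2, and import and cristae 10 of 20 and 0. Mitochondrial ribosomal proteins gave 33 of 75 lower and 6 higher, with a median log2 difference of -0.21, smaller than the members' -0.94. Cytosolic ribosomal proteins went the other way, with 75 of 85 at least 1.2-fold higher and a median of 0.96.

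Among single genes of these lists, Cycs, the cytochrome c that serves complex IV, read 11.3 in control type I and 4.48 in type II neurons, and Cyc1 6.67 and 2.56. Chchd10, a protein of the cristae junctions, read 19.2 and 1.38. The pyruvate carriers Mpc1 (5.14 and 1.84) and Mpc2 (8.37 and 2.73) were lower as well. Of 7 regulators of mitochondrial genes compared, 4 were at least 1.2-fold lower in type II and 1 at least 1.2-fold higher. The coactivator Ppargc1a read 2.80 and 0.43, its relative Ppargc1b 0.50 and 0.01, and the oestrogen-related receptors Esrra 1.14 and 0.39 and Esrrg 1.22 and 0.19. Tfam, which packages mitochondrial DNA, read 0.37 and 0.32, its partner in mitochondrial transcription Tfb2m 0.48 in both types, and the transcription factor Yy1 0.66 and 0.97.

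Of 15 glycolysis genes, 10 lay below type I by at least 1.2-fold in control type II neurons (32.8% of all genes) and 4 lay above by as much (34.4%). Hexokinase Hk1 read 1.65 in type I and 3.85 in type II, and the lactate dehydrogenase subunit Ldha 0.13 and 1.0. The other subunit, Ldhb, read 32.3 and 11.6, and the phosphofructokinase Pfkm 2.90 and 0.67.

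Genes outside the rule followed the sum of the members closely. Over the 8 means of 4 classes and 2 genotypes, the highest Pearson correlations among 1896 genes of a mean of at least 1 were those of Higd1a (0.999), Prdx5, Cyc1, Idh3a and Usmg5 (0.996 each). Higd1a binds complex IV, while Idh3a is a TCA cycle enzyme and Prdx5 a peroxidase. Cyc1 and Usmg5 are themselves subunits, left out only by the rule on names. The 8 means share libraries, and the 2 type II means lie apart from the other 6, so these values are descriptions.

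Within type I neurons the differences were small. Control sums ran from Ia through Ib to Ic, while in CKO cells Ib (648.9) lay below Ic (678.2). The members summed to 768.5, 728.8, 770.5, 694.9 and 724.1 in Ia neurons of stretches 1 to 5, and to 712.9, 663.2, 735.3, 620.0 and 677.4 in Ic. Ia was the higher in each stretch, though the ranges of the classes overlapped across stretches. The rate in Ia was 1.07 of that in Ic in control and 1.1 in CKO. In control, 12 of 76 members were at least 1.2-fold higher in Ia, against 8.89% of all genes, and 0 at least 1.2-fold lower, against 16.6%. The medians were 0.12 for members and -0.06 for all genes. CKO cells gave 18 higher (9.31%), 0 lower (16.8%) and a median of 0.19.

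Cox8b differed most. It read 3.37, 1.49, 2.71, 2.16 and 3.20 in Ia neurons of stretches 1 to 5, 1.91, 1.42, 1.90, 1.2 and 1.98 in Ib, and 1.59, 1.17, 1.24, 0.96 and 1.54 in Ic. The order Ia, Ib, Ic held in each stretch, although the classes overlapped across stretches. The rate in Ia was 2.14-fold that in Ic in control (interval 2.02 to 2.27) and 2.22-fold in CKO. Within control stretch 2 the log2 difference was 0.33, and within the other 4 stretches 1.01 to 1.1. Cox8a, its paralog, differed by 0.01 between control Ia and Ic.

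Part of the other Ia counts moved with the stretches. Stretch 2 gave 52 of the 242 control Ia cells and 185 of the 314 Ic cells, and stretch 5 gave 190 and 129. Atp5k, subunit e of the ATP synthase membrane part, was 0.37 higher in log2 in control Ia than in Ic, but -0.00 within stretch 2 and 0.10 within stretch 5. Ndufa3, a small accessory subunit of complex I, was 0.34 higher over both, and 0.23 and 0.03 within them. Sdhb was steadier, with 0.31 over both, and 0.32 and 0.29 within them. Over all 76 members, 3 were at least 1.2-fold higher in Ia within each of stretches 2 and 5 (Cox7b, Cox8b and Sdhb). That is 3.95% of the members, below the 5.42% of all genes. Ndufa4 went the other way in control, at 28.7 in Ia and 32.4 in Ic (log2 -0.17, CKO -0.05).

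Between genotypes the members as a whole hardly differed. They summed to 655.8 in control and 656.0 in CKO cells. Stretches 1 to 5 read 657.9, 636.1, 679.1, 596.7 and 672.0, of which the second and the fifth are control, so the genotypes overlapped. These sums over all cells depend on the class mix, with 119 type II of 1070 control cells and 152 of 884 CKO cells. Pooled type I neurons read 693.1 in control and 715.6 in CKO, and type II 358.1 and 368.9. Ib alone was lower in CKO, and type I neurons of CKO stretch 4 (637.6) lay below both control stretches (685.1 and 699.1). Complex I read 229.8 in control and 232.7 in CKO, complex II 10.1 and 9.35, complex III 64.8 and 65.7, complex IV 184.3 and 181.6, and complex V 166.8 and 166.7. The ratio of UMI rates, CKO over control, was 1.03 for all members and 0.945 for complex II (interval 0.932 to 0.958). Summing UMIs weights deep cells more than a mean over cells does.

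None of the 76 members compared was at least 1.2-fold higher in CKO, against 3.73% of 6678 genes. Lower by at least 1.2-fold were 3, Cox7b, Uqcrc1 and Atp5sl, against 5.86% of all genes. By sign, 44 members were higher and 32 lower in CKO, with a median log2 difference of 0.01, while 41.5% of all genes were higher, with a median of -0.03. For 8 members every CKO stretch lay below both control stretches, against 13.3% of all genes, and for 1 (Ndufa8) every CKO stretch lay above, against 5.77%. The 8 were Atp5a1, Atp5b, Atp5sl, Cox7b, Ndufa9, Ndufb4, Ndufv1 and Uqcrc1. These shares are near or below those of all genes.

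**Figure D4:**
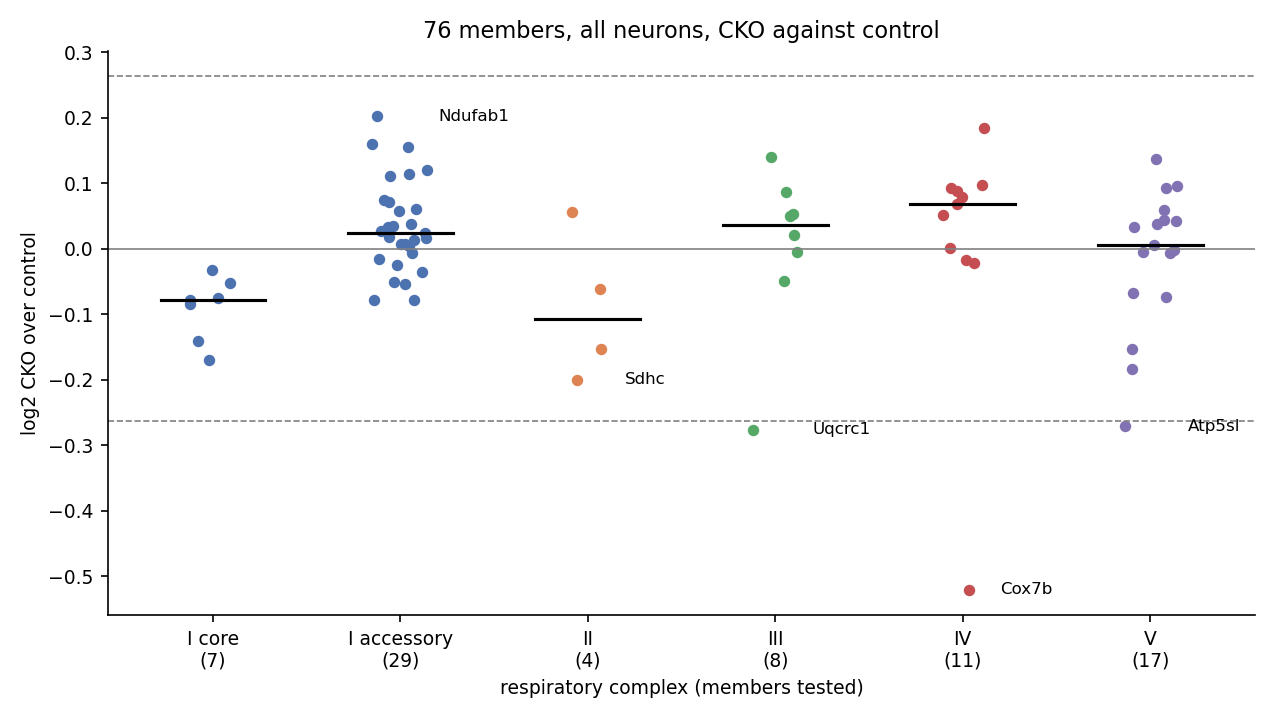
Log2 difference, CKO over control, of the 76 members compared (points), by complex, with complex I split into core and accessory subunits; black bars are medians and dashed lines mark 1.2-fold. Cox7b, Uqcrc1 and Atp5sl lie below the lower dashed line and no member lies above the upper one.

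Cox7b (X chromosome, 106015700 to 106022450), a small subunit of complex IV, had the lowest value. In CKO stretches 1, 3 and 4 the level was 15.8, 15.8 and 22.4, and control stretches 2 and 5 gave 23.2 and 25.3. CKO stretches 1 and 3 were well below control, and stretch 4 was just under the lower control stretch. The means were 24.4 in control and 17.0 in CKO (log2 -0.52, rate ratio 0.708, interval 0.701 to 0.715), rank 45 from the lowest of 6678 genes. The same 2 stretches were low in each class. In Ia neurons of stretches 1 to 5 it read 18.7, 29.0, 17.9, 28.2 and 29.3, in Ib 14.8, 27.3, 19.1, 25.9 and 26.4, in Ic 18.2, 22.6, 15.7, 21.6 and 24.1, and in type II 6.73, 10.5, 6.29, 10.9 and 7.92. Stretch 4 thus lay at or close to the control values in each class, and above both in type II. Whether stretches 1 and 3 differ from stretch 4 in animal, sex or library is unknown.

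Uqcrc1 (chromosome 9, 108936633 to 108949623) read 5.40 and 5.47 in the control stretches, and 3.97, 5.26 and 3.76 in CKO stretches 1, 3 and 4. Here stretch 3 lay near control and stretches 1 and 4 below. The means were 5.44 and 4.47 (log2 -0.28, rate ratio 0.846, interval 0.830 to 0.863), and without stretch 1 the difference was -0.17. Atp5sl read 0.75 in control and 0.61 in CKO (log2 -0.27), and -0.17 without control stretch 5. Sdha read 3.29, 4.2 and 3.45 in CKO and 4.13 and 4.12 in control, with stretch 3 above both controls. The largest value above 0 was that of Ndufab1, the mitochondrial acyl carrier protein bound to complex I. It read 6.60, 6.55 and 5.54 in CKO and 5.32 and 5.73 in control (log2 0.20), with stretch 4 between the controls. Ndufa8 read 4.05, 4.10 and 3.94 in CKO and 3.68 and 3.75 in control, a log2 difference of 0.12, and the genotypes did not overlap.

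The remaining extremes of each complex stayed under 1.2-fold. In complex I these included Ndufb8 (log2 0.16) and Ndufv1 (-0.17). In complex II they were Sdhc (-0.20), Sdhd (0.06) and Sdhb (-0.06), and in complex III Uqcrb (0.14), Uqcrq (0.09) and Uqcr10 (-0.05), all small subunits. Complex IV had Cox8b (0.18), Cox5b (0.10), which binds zinc, and Cox6a1 (-0.02), and complex V had Atp5e (0.14), Atp5f1 (0.10) of the outer stalk and Atp5b (-0.18). Shared 3′ sequence makes Ndufb8 (31.1% of windows) and Uqcrb (40.6%) uncertain.

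Over all neurons together, the medians of the core and accessory subunits of complex I differed in sign. All 7 core subunits were lower in CKO, by a median log2 of -0.08, while 21 of 29 accessory subunits were higher, by a median of 0.02. Of all genes 41.5% were higher, with a median of -0.03. In Ia neurons alone, 5 of the 7 core subunits were higher in CKO (median 0.04), as were 28 of the 29 accessory subunits (0.12). In Ib all 7 core subunits (median -0.18) and 22 of the 29 accessory ones (-0.05) were lower. The medians thus shared a sign in Ia and in Ib. They differed in sign in Ic (core -0.08, accessory 0.04) and type II (-0.17 and 0.05). Of the summed mean level of complex I, with Ndufa4 counted as accessory, the core took 14.0% and 13.5% in the control stretches. In the CKO stretches it took 12.5%, 12.9% and 12.8%. The ranges did not overlap, though each core subunit stayed under 1.2-fold, and no such share was computed for other genes. The F1 head of complex V also had a median under 0 (-0.07), with Atp5b at 18.2 in control and 16.0 in CKO and Atp5a1 at 14.7 and 13.2. The other way went Atp5e (log2 0.14) and Atp5c1 (0.04), and in Ia neurons 3 of the 5 were higher, with a median of 0.05. Across members, longer transcripts had lower CKO values (Spearman's rho -0.31 over 75 genes), and the same was seen across all genes (-0.14). Stretches of one genotype showed such a trend as well. For CKO stretch 1 over 4, rho was -0.35 across members and -0.25 across all genes, and for CKO stretch 3 over 4, -0.17 and -0.27. Control stretch 5 over 2 gave -0.20 and -0.02. The trend is thus not particular to the genotype comparison. The part of transcript length in the core difference was not tested.

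Within classes the genotype values went in different directions. In Ia neurons 62 of 76 members were higher in CKO (median 0.08), where 43.4% of all genes were higher (median -0.02). Not all stretches shared this. The Ia sums were 768.5, 770.5 and 694.9 in CKO stretches 1, 3 and 4 (167, 198 and 19 cells). Control stretches 2 and 5 gave 728.8 and 724.1, so CKO stretch 4 lay below both. In Ib 11 of 75 were higher and 64 lower (median -0.07), where 41.7% of all genes were higher (median -0.04). In Ic 43 were higher and 33 lower, and in type II 47 and 27, beside 43.5% and 43.6% of all genes higher. Few passed 1.2-fold. In Ia these were Cox5b and Ndufab1, higher (2.3% of all genes), and Cox7b, lower (3.68%). In Ib they were Cox7b, Sdhc and Uqcrc1, lower (8.12%), with 0 higher (5.59%). In Ic 4 were lower (11.4%) and 0 higher (6.84%), and in type II Ndufab1 was higher (6.39%) and Cox7b and Sdha lower (9.75%). The class cells were chosen by the same marker limits in both genotypes, and the markers themselves differed: Calb1 was 0.28 in control Ia and 1.90 in CKO Ia.

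The lower sum of CKO Ib neurons was not shared by all stretches. Ib neurons read 604.7, 707.6 and 635.9 in CKO stretches 1, 3 and 4, where control stretches gave 695.5 and 690.3, so stretch 3 lay above both controls. It also went with depth. Among Ib neurons under 30000 UMIs, 80 control cells read 590.0 and 58 CKO cells 441.7, with 73 members lower and 3 higher in CKO, where 46.7% of all genes were higher. Median Malat1 in those cells was 245.9 in control and 508.0 in CKO. Among Ib neurons of at least 30000 UMIs, 315 control cells read 718.6 and 158 CKO cells 725.0, with 43 members higher and 32 lower, where 40.9% of all genes were higher. Ic neurons showed the same division, with 559.2 in control and 485.6 in CKO below that depth and 696.0 and 723.2 above it. Ia neurons did not show it, with 602.8 in control and 609.5 in CKO below that depth and 739.2 and 780.6 above it. Below it 49 members were higher and 27 lower in CKO, where 50.1% of all genes were higher. The split by depth was chosen after seeing the data.

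Depth and Malat1 went with the summed level in single neurons too. Spearman's rho with Malat1 across cells was between -0.52 and -0.72 in the 8 combinations of class and genotype, and with depth between -0.09 and 0.51. A tail of type I neurons had sums under 500: 8 Ia, 32 Ib and 25 Ic cells in control, and 7, 41 and 14 in CKO. Their median Malat1 was 421 to 626, against 146 to 215 over the classes, and their median ribosomal protein sum was 161 to 363, against 437 to 464. The part of RNA quality in the tail was not tested. Type II neurons had Malat1 as high, but their median ribosomal sums were 926 and 952.

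**Figure D5:**
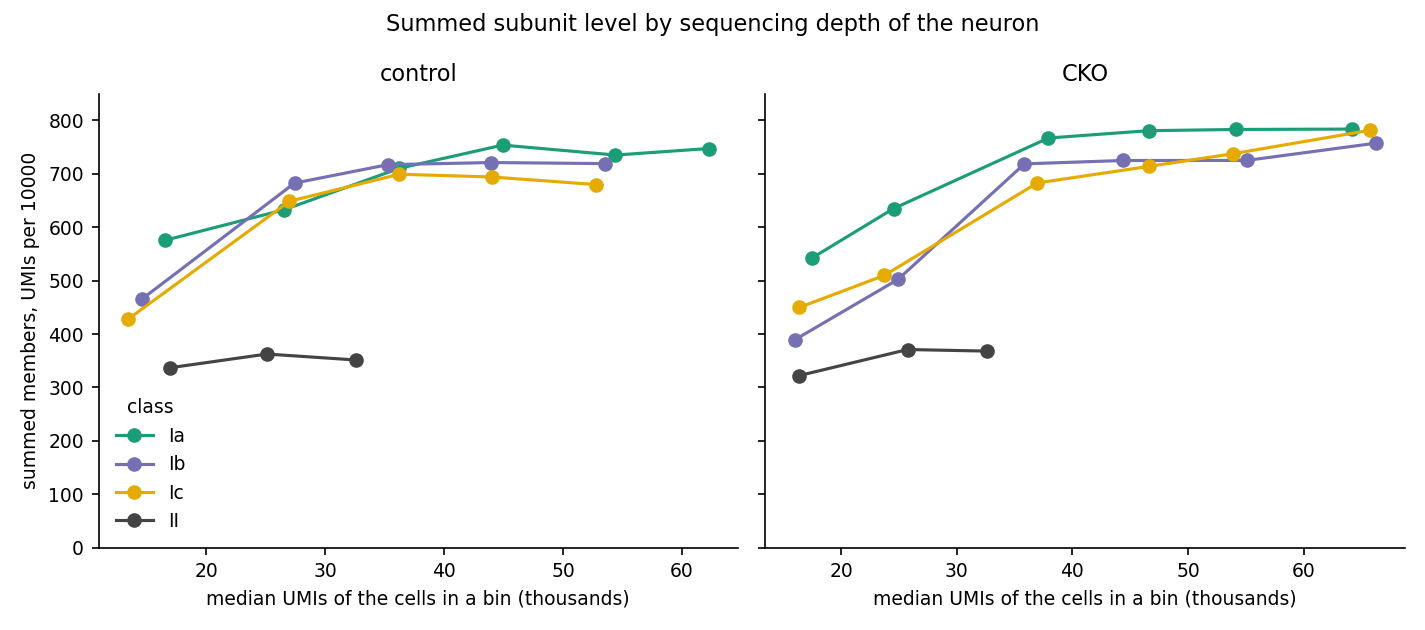
Mean summed level of the members (UMIs per 10000) against the median depth of the cells in a bin (UMIs, in units of 1000), by class, in control (left) and CKO (right); bins of at least 5 cells are drawn. Type I sums climb up to about 30000 to 40000 UMIs and change less above that, while type II sums stay between 300 and 400 at each depth drawn.

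Single stretches of one genotype differed from each other at 1.2-fold in more members than the genotype pools did. The pools average over stretches, and stretches 2 and 5 differed in their class mix. Control stretch 5 was at least 1.2-fold above stretch 2 for 9 of 76 members (7.57% of all genes) and below it for 0 (7.65%), with a member median of 0.08. Equal weights for the 4 classes gave 6 (7.62%) and 1 (4.48%), with a median of -0.001. Atp5k read 4.24, 2.90, 4.50, 3.33 and 5.65 in stretches 1 to 5. Ndufa3 read 3.86, 2.70, 4.02, 3.04 and 4.71, and Ndufa1 3.12, 2.19, 3.60, 2.45 and 3.42. For these genes stretch 2, a control, and stretch 4, a CKO, were the low ones, so the pattern crossed the genotypes. Cox8b (2.27, 1.12, 1.94, 1.08 and 2.13) and Atp5e (11.4, 8.08, 11.7, 9.69 and 11.9) had the same low stretches. With the 4 classes given equal weights, Atp5k was still 0.92 higher in log2 in stretch 5 than in stretch 2. Among CKO stretches, 24 members were at least 1.2-fold higher in stretch 3 than in stretch 4 (16.7% of all genes) and 1 lower (16.2%). Stretch 1 was above stretch 3 for 0 (10.3%) and below it for 5 (17.8%). It was above stretch 4 for 9 (7.17%) and below it for 1 (12.1%).

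The helper lists differed little between genotypes, with 1 of 11 complex I assembly factors at least 1.2-fold higher in CKO (3.73% of all genes). No gene of the TCA cycle (13 compared), of the complex III, IV and V assembly lists, of the carriers or of import and cristae was at least 1.2-fold different, and the TCA median was -0.10. Glycolysis had 3 of 15 genes at least 1.2-fold lower in CKO (5.86% of all genes) and 0 higher, with a median of -0.14. Of the regulators 1 of 7 was lower by that much (Ppargc1b, log2 -0.27), and of the mitochondrial ribosomal proteins 1 of 76.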

How the data were processed

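Per the submitters' processing notes, the reads went through Cell Ranger and Seurat with mm10. The authors deposited 1 matrix in natural log units, ln(1 + UMIs per 100000 UMIs of the cell), settled from the values. Undoing the log recovered a whole UMI count for 100% of the deposited values above 0 (tolerance 0.01). A level is the mean over cells of UMIs per 10000. Log2 differences used a pseudocount of 0.1, and genes at a mean of at least 0.2 in either group were compared. With 1 pool per genotype, fold limits stood in for the count test planned for named libraries. Intervals are exact 95% Poisson, binomial or Clopper-Pearson intervals.

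No doublet caller was run and no cell was left out. Of the barcodes, 1 is shared by 2 stretches. The text names, per complex, the most counted member, the extremes of each comparison at a mean of at least 0.5, all paralogs, and up to 4 genes of each other list, the most counted first; other list genes, and members named for a stretch pattern, were chosen after their values were seen. One member that this rule names is not reported here. The members and lists were chosen with earlier results of these data known. Gene loci and 3′ windows (300 bases, read in 50-base pieces) came from GENCODE M21 on GRCm38, the same assembly as mm10. The fold rule was checked on simulated data. Scripts used Python 3.11.15, numpy 2.4.6, pandas 2.3.3, scipy 1.17.1 and matplotlib 3.10.9.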

Additional observations from a re-analysis of the deposited data

How the results depend on the processing

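No paired analysis was possible because the columns carry no library names or replicate numbers. Each alternative changed 1 choice, and none reversed the sign of a value past 1.2-fold in the main setting. Only such values could count as reversed, among them 3 of 41 named members. Atp5k, under that limit, read -0.42 without control stretch 2 and 0.52 without control stretch 5. Of the alternatives for the main results, 71 moved past counting error (for counts, past 1.5-fold) and 43 did not. The summed log2 difference, CKO over control, was 0.00 for all members. It was 0.0388 with UMIs summed over a pool, 0.0101 with equal class weights, 0.0067 per UMIs of other genes and -0.0212 in cells with under 5 glial UMIs. It was 0.0789 in cells with Malat1 under 300 and 0.0443 in cells of at least 30000 UMIs, both chosen after seeing the data. By complex, summed UMIs gave 0.0566 (I), -0.0813 (II), 0.0566 (III), 0.0212 (IV) and 0.0337 (V). Equal class weights gave 0.0298 (I), 0.0313 (III), -0.0108 (IV) and 0.00522 (V), and thinning each cell to 10000 UMIs gave 0.0233 (I).

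Leaving out 1 stretch at a time gave -0.0372 to 0.0444 for all members, -0.0163 to 0.0470 for complex I, -0.24 to -0.0319 for II, -0.0194 to 0.0684 for III, -0.0567 to 0.0219 for IV and -0.0589 to 0.0723 for V. Members past 1.2-fold in CKO then numbered 0 to 6 higher (6 without control stretch 5) and 1 to 7 lower (1 without CKO stretch 1, 7 without CKO stretch 3). Members whose stretches did not overlap numbered 1 to 22 higher (22 without CKO stretch 4, 18 without control stretch 5) and 8 to 22 lower (22 without control stretch 2), where fewer stretches had to differ. Shares over all genes were not computed for these leave-one-out settings, so neither set of counts can be read as particular to the members. A 1.5-fold limit left 0 lower members, against 0.509% of all genes. A pseudocount of 1 left 1, with no share over all genes computed. Of the 3 lower members, Cox7b kept 1.2-fold under each alternative run; Uqcrc1 did not with a pseudocount of 1 or without stretch 1 or 4 (-0.17, -0.23), nor Atp5sl with a pseudocount of 1, equal weights, thinning or without stretch 1 or 5. Without control stretch 5, Cox8b reached 0.72, Ndufa1 0.53, Atp5k 0.52, Atp5e 0.47 and Sdhd 0.36. The cause was not tested.

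The type II difference (-0.95) was -0.964 in thinned cells, -0.914 with under 5 glial UMIs, -0.957 to -0.941 leaving out a stretch and, chosen after seeing the data, -0.876 with Malat1 under 300 and -0.976 at 25000 to 35000 UMIs. Members higher in type II numbered 0 with a 1.5-fold limit, against 19% of all genes. They numbered 0 with a pseudocount of 1 and 3 without the minimum level, settings for which no share over all genes was computed. The Ia over Ic difference (0.12) was 0.102 and 0.15 with Calb2 limits of 100 and 200, 0.121 in thinned cells and 0.0962 to 0.136 leaving out a stretch.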
